A study of Homo sapiens with 6 samples.

Results

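The transcriptome of HCT116 cells after YAP knockdown was compared with that of negative control cells, gene by gene. HCT116 is an epithelial cell line from a human colorectal carcinoma. The libraries used were those of the negative control group (NC) and of the group that received a siRNA against YAP (siYAP), with 2 libraries each, out of 6 libraries in 3 groups. The remaining group, transfected with a GAS5 plasmid (GAS5), shares the NC control, so its values are only set beside the others. All cells were of the same line, grown with serum in a medium that the labels and the study's methods name differently, and neither the agent given to NC, the YAP siRNA used for sequencing, nor the time after transfection is stated. Strand-specific libraries were made from mRNA together with non-coding RNA, and the tables used here hold mRNA transcripts. The deposited values are the authors' mean of each group, so there is no spread between replicates, no SD and no test in any of the comparisons, and nothing states whether the paired libraries came from separate cultures. Differences between siYAP and NC are therefore differences between 2 mean values. The 95% Wilson intervals given with single genes cover counting error only.

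Estimated counts of the transcripts of a gene symbol were summed, and a gene was kept when the mean of its NC and siYAP sums was at least 50 counts. Of 19871 symbols, 11910 were kept, and they held 99.9% of the counts in either group. Of the 7961 that were not kept, 3751 were at 0 in both groups. At the limit, DNAH10OS was kept with 53.5 counts in NC and 46.5 in siYAP, while CENPS-CORT was left out with 59.1 and 40.7. The sums over all symbols came to 27145310 counts in NC, 26243190 in siYAP and 25471771 in GAS5. Levels are counts per 1000000 of these totals (CPM), which are not scaled by gene length and are compared only between groups. A difference is a log2 ratio of siYAP over NC after adding a prior count of 2. Of the markers chosen to check the cell type, all 7 epithelial genes were kept. None of 7 endothelial genes was kept, and 1 of 7 was kept for each of fibroblasts, leukocytes and hepatocytes.

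YAP is a transcriptional co-activator that does not bind DNA by itself. It enters the nucleus when the Hippo kinases MST1/2 and LATS1/2 are inactive and binds TEAD transcription factors, which recognise the core motif GGAATG at enhancers and promoters of growth genes. In intestinal epithelium the pathway is known for its part in regeneration and tumor growth.

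The targeted gene was lower in siYAP. YAP1 (chr11:102110461-102233423, plus strand, GENCODE 29 on GRCh38) was at 3480 counts in NC and 1444 in siYAP. In CPM the levels were 128 in NC, 55.0 in siYAP and 105 in GAS5. The log2 ratio of siYAP over NC was -1.22 (95% interval -1.28 to -1.16), a 2.33-fold lower level. All 9 listed YAP1 transcripts had at least 10 counts, and 8 of them were lower in siYAP. The exception was ENST00000615667, with 281 counts in NC and 283 in siYAP. Summed FPKM, which takes transcript length into account, was 46.9 in NC and 19.5 in siYAP.

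At the level of single genes the response was small for most of the transcriptome. The median log2 ratio of the kept genes was -0.04, with quartiles at -0.25 and 0.16, and 92.6% of the genes lay within 1.5-fold of NC. At or past 2-fold, 33 genes (0.277% of those kept) were higher in siYAP and 70 (0.588%) were lower. At or past 1.5-fold, 264 genes (2.22%) were higher and 615 (5.16%) were lower, so lower genes outnumbered higher ones at both limits. The spread of the ratios depended on the count. Among the 1606 genes with a mean of 50 to 200 counts, 21 were 2-fold higher and 36 were 2-fold lower, whereas among the 5379 genes with 1000 counts or more these numbers were 1 and 11. The 10th and 90th percentiles of the log2 ratio were -0.60 and 0.47 in the first class and -0.38 and 0.31 in the other. The median half-width of the counting interval was 0.27 and 0.06 in the same classes.

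**Figure D1:**
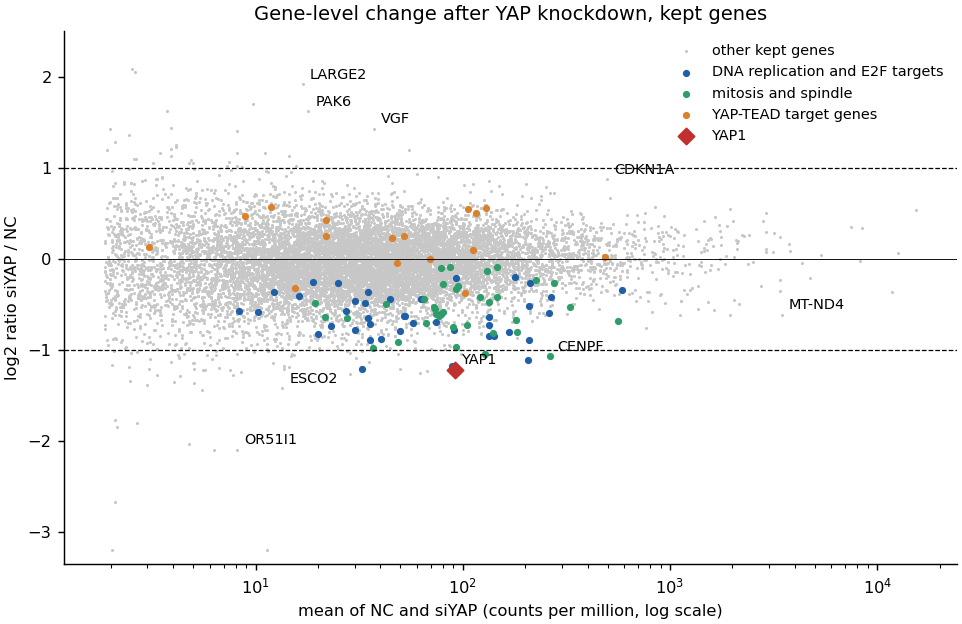
Log2 ratio of siYAP over NC (y axis) against the mean of the NC and siYAP levels in CPM (x axis, log scale) for the 11910 kept genes. Dashed lines mark 2-fold, 2 genes below -3.2 are drawn at -3.2, and the coloured genes of DNA replication (43) and mitosis (35) all lie below 0, while 13 of 16 YAP-TEAD target genes lie above it.

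TAZ and the TEAD factors showed little difference. TAZ, encoded by WWTR1 and closely related to YAP, was at 66.6 CPM in NC and 76.2 in siYAP (log2 ratio 0.19, interval 0.13 to 0.26). The TEAD factors TEAD1, TEAD2, TEAD3 and TEAD4 had log2 ratios of -0.04, -0.03, 0.11 and -0.10. These values varied with the processing. TEAD1 was at 0.25 with Ensembl transcripts only, and TEAD4 at -0.25 after centring on GC content and length, chosen after seeing the data. Of the 7 kept genes among 10 YAP, TAZ, TEAD and VGLL factors, YAP1 alone was at or past 1.5-fold. Among 26 Hippo kinases and scaffolds, all kept, 3 were at or past 1.5-fold lower (5.16% over all kept genes) and 1 was higher (2.22% over all kept genes). These 4 genes were named after their values were seen. FRMD6, a FERM-domain scaffold upstream of the kinases, went from 25.8 CPM in NC to 13.9 in siYAP (log2 ratio -0.89). MOB1A, a co-activator of the LATS kinases, and STK3, which encodes the kinase MST2, had log2 ratios of -0.64 and -0.62. WWC3, of the KIBRA family, had a log2 ratio of 0.73.

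Established YAP-TEAD target genes were not lower as a group. Of a published set of 22 target genes, 16 were kept, and 13 of 16 were above NC. The median log2 ratio was 0.24 against -0.04 over all kept genes. None of the 16 was at or past 1.5-fold higher (2.22% over all kept genes) or lower (5.16%). For 16 genes a count of 0 is near these shares. CTGF, a matricellular protein, was at 2.93 CPM in NC and 3.20 in siYAP, and its log2 ratio of 0.13 (interval -0.18 to 0.44) could not be told from 0 by counting error alone. CYR61, of the same protein family, was at 19.9 CPM in NC and 23.7 in siYAP (log2 ratio 0.25, interval 0.13 to 0.37). In both genes the GAS5 level was the highest of the 3 groups, at 4.79 and 41.5 CPM. The receptor tyrosine kinase AXL went from 105 CPM in NC to 154 in siYAP (log2 ratio 0.55), and AMOTL2, an angiomotin that binds YAP, from 95.5 to 135 (log2 ratio 0.50). ANKRD1 was not kept, with 0.15 CPM in NC and 0.32 in siYAP. Over 23 kept genes of 26 other reported targets the median was 0.15, with 2 genes at or past 1.5-fold lower (5.16% over all kept genes) and 1 higher (2.22%). The lower ones were CDC6 (log2 ratio -0.63), a loader of the replicative helicase, and DIAPH3 (-0.59), a formin. CDC6 and DIAPH3 were named after their values were seen. YTHDF3, an m6A reader that the study links to YAP, was at 56.9 CPM in NC, 43.6 in siYAP and 63.5 in GAS5. Its log2 ratio for siYAP was -0.38 (interval -0.46 to -0.30), within 1.5-fold. With summed FPKM it was -0.27, and after centring on GC content and length, chosen after seeing the data, -0.14. Of its 6 transcripts with at least 10 counts, 3 were lower. The study describes YTHDF3 as down by more than 10-fold in both treatments, which these gene sums do not show. It does not say whether that value is for the gene or for a single transcript, so the 2 measures may differ. By qRT-PCR and western blot the study also reports less YTHDF3, CTGF and CYR61 after YAP knockdown. Its ChIP and luciferase assays place YAP at the YTHDF3 promoter. Those assays were not examined here.

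**Figure D2:**
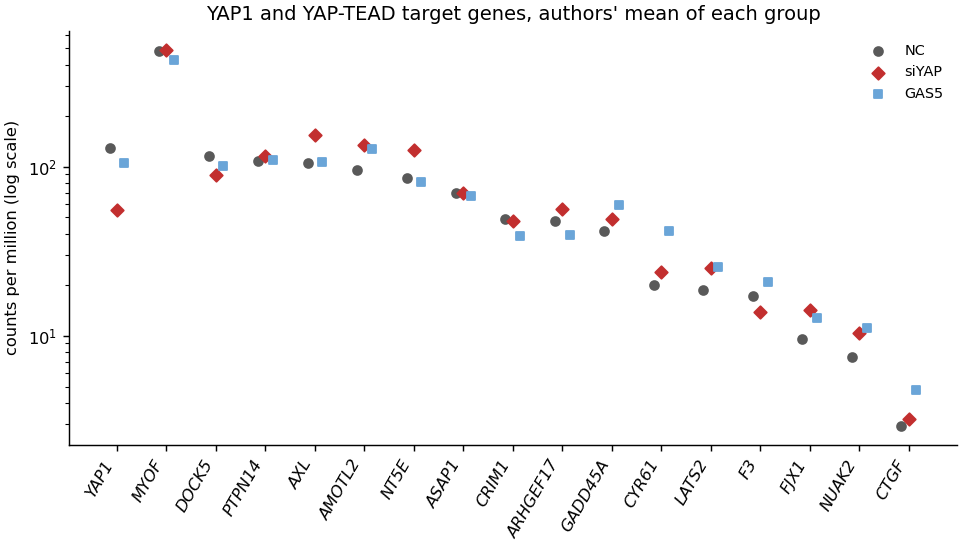
Level of YAP1 and of the 16 kept YAP-TEAD target genes in CPM (y axis, log scale), as the authors' mean of NC, siYAP and GAS5. YAP1 is lower in siYAP (55.0 CPM against 128), whereas AXL (154 against 105) and AMOTL2 (135 against 95.5) are higher. No target gene differs by 1.5-fold, against 2.22% higher and 5.16% lower over all kept genes.

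The TEAD motif was searched in RefSeq promoter windows of 300 bases over the annotated transcription start (GRCh38.p14), as GGAATG or its reverse complement CATTCC. Of the kept genes 9710 matched a window by symbol, with 14295 windows in all because some genes have several starts. The motif stood in 11.1% of these windows. It stood in 10 of 56 windows (17.9%) of the genes 2-fold lower in siYAP, in 3 of 35 windows (8.57%) of those 2-fold higher, and in 6 of 12 windows of the kept YAP-TEAD target genes. At 1.5-fold the order was the other way, with 12.2% of windows of the lower genes and 14.6% of those of the higher genes. With only the first window of each gene, the 2-fold lower genes were at 19.0% and the 2-fold higher genes at 11.5%, against 10.2% over all kept genes. Over all RefSeq promoters the share was 14.0%. The CTGF promoter is shown because it holds the motif 3 times while the gene did not differ between siYAP and NC beyond its counting interval, and that of YAP1 because it holds the motif once. Capitals mark the motif. The windows are chr6:131951323-131951622 (minus strand) and chr11:102110197-102110496 (plus strand).
CTGF: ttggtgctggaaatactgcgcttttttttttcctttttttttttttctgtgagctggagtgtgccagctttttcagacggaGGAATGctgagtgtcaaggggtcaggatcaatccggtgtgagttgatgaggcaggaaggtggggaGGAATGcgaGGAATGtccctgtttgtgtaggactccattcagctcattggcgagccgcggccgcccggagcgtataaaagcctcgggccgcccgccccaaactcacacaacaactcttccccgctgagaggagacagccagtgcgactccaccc
YAP1: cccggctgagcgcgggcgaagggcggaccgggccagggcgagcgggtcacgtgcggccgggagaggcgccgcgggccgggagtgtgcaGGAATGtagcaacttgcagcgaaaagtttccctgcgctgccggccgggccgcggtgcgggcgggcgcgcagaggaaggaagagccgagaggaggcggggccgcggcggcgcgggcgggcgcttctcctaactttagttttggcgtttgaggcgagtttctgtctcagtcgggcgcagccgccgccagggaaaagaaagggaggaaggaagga
A match is a description of these letters and does not show binding.

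The genes of DNA replication had the lowest median of the lists with 10 or more kept members. In S phase the MCM2 to MCM7 helicase, loaded at origins and activated by CDC45 and the GINS complex, unwinds DNA for the polymerases, and the genes for this machinery are classical targets of E2F transcription factors. All 43 genes of the list of DNA replication and E2F targets were kept and all 43 were below NC in siYAP. The median log2 ratio was -0.63 against -0.04 over all kept genes, 24 of 43 were at or past 1.5-fold lower (background 5.16%) and 0 were higher. All 43 stayed below 0 under each alternative scaling, filter, unit or centring that was run. In the GAS5 group, against the same NC values, the median of the list was 0.25. In bulk RNA, fewer cells in a phase of the cycle and less RNA per cell cannot be told apart.

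The 3 genes of the list at or past 2-fold belong to the replicative helicase. GINS2, a GINS subunit (chr16:85676198-85690073, minus strand), was at 45.8 CPM in NC, 19.8 in siYAP and 63.8 in GAS5 (log2 ratio of siYAP over NC -1.21, interval -1.31 to -1.11). MCM6 (chr2:135839626-135876426, minus strand) was at 123 CPM in NC, 54.5 in siYAP and 150 in GAS5 (-1.18, interval -1.24 to -1.12). MCM4 was at 282, 130 and 377 CPM in the same order (-1.11, interval -1.16 to -1.07). After centring on GC content and length, chosen after seeing the data, GINS2, MCM6 and MCM4 were at -1.13, -0.96 and -1.02. MCM3, with 271 CPM in NC and 146 in siYAP (log2 ratio -0.89), was among the largest differences in CPM. The members within 2-fold, MCM3 aside, were named after their values were seen. Of the other helicase subunits, MCM5 (-0.85), GINS4 (-0.74) and MCM2 (-0.60) were past 1.5-fold while GINS3 (-0.41), MCM7 (-0.34) and GINS1 (-0.26) were not. The replication factors MCM10 (-0.89), CDC45 (-0.78) and ORC1 (-0.71) were past 1.5-fold. PCNA, the sliding clamp of the polymerases, went from 213 CPM in NC to 122 in siYAP (-0.81), and RFC4 and RFC5 of its loader had log2 ratios of -0.80 and -0.71. TYMS, the thymidylate synthase, was at -0.84 and RRM1, a ribonucleotide reductase subunit, at -0.64. UHRF1, which couples DNA methylation to replication, was at -0.73. ATAD2, a bromodomain ATPase outside the list, went from 237 to 129 CPM (-0.87). The smallest differences of the list were those of CDT1 (-0.20) and POLD1 (-0.22).

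Mitotic genes lay on the same side. All 35 genes of the mitosis and spindle list were kept and all 35 were below NC, with a median log2 ratio of -0.55, 16 at or past 1.5-fold lower (5.16% over all kept genes) and 0 higher. All 35 stayed below 0 under the same alternatives, but after centring on GC content and length, chosen after seeing the data, only 6 were past 1.5-fold. In the GAS5 group the median was -0.06. CENPF, a kinetochore protein (chr1:214603195-214664588, plus strand), was at 358 CPM in NC, 171 in siYAP and 270 in GAS5 (log2 ratio -1.07, interval -1.11 to -1.03). KIF20A, a kinesin of cytokinesis, was at 171 CPM in NC, 83.1 in siYAP and 168 in GAS5 (-1.04, interval -1.10 to -0.99). After that centring CENPF was at -0.83 and KIF20A at -0.93, both within 2-fold. The proliferation antigen MKI67 went from 694 to 433 CPM (-0.68; -0.58 and within 1.5-fold after that centring). Past 1.5-fold, and named after their values were seen, were the kinetochore motor CENPE (-0.98), the checkpoint kinases BUB1B (-0.97) and BUB1 (-0.72), the spindle motor KIF11 (-0.92), the midzone protein PRC1 (-0.82), the topoisomerase TOP2A (-0.81) and cyclin A2, CCNA2 (-0.71). Not all mitotic genes differed to this extent, with PLK1 at -0.23, AURKB at -0.09 and FOXM1, a transcription factor of the mitotic genes, at -0.09. PLK1, AURKB and FOXM1 were also named after their values were seen. DEPDC1, reported in mitosis and outside the list, went from 94.6 to 40.2 CPM (-1.23). ESCO2, which acetylates cohesin in S phase, went from 19.6 to 7.28 CPM (-1.42, interval -1.60 to -1.26). After that centring DEPDC1 was at -0.98 and ESCO2 at -1.18.

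**Figure D3:**
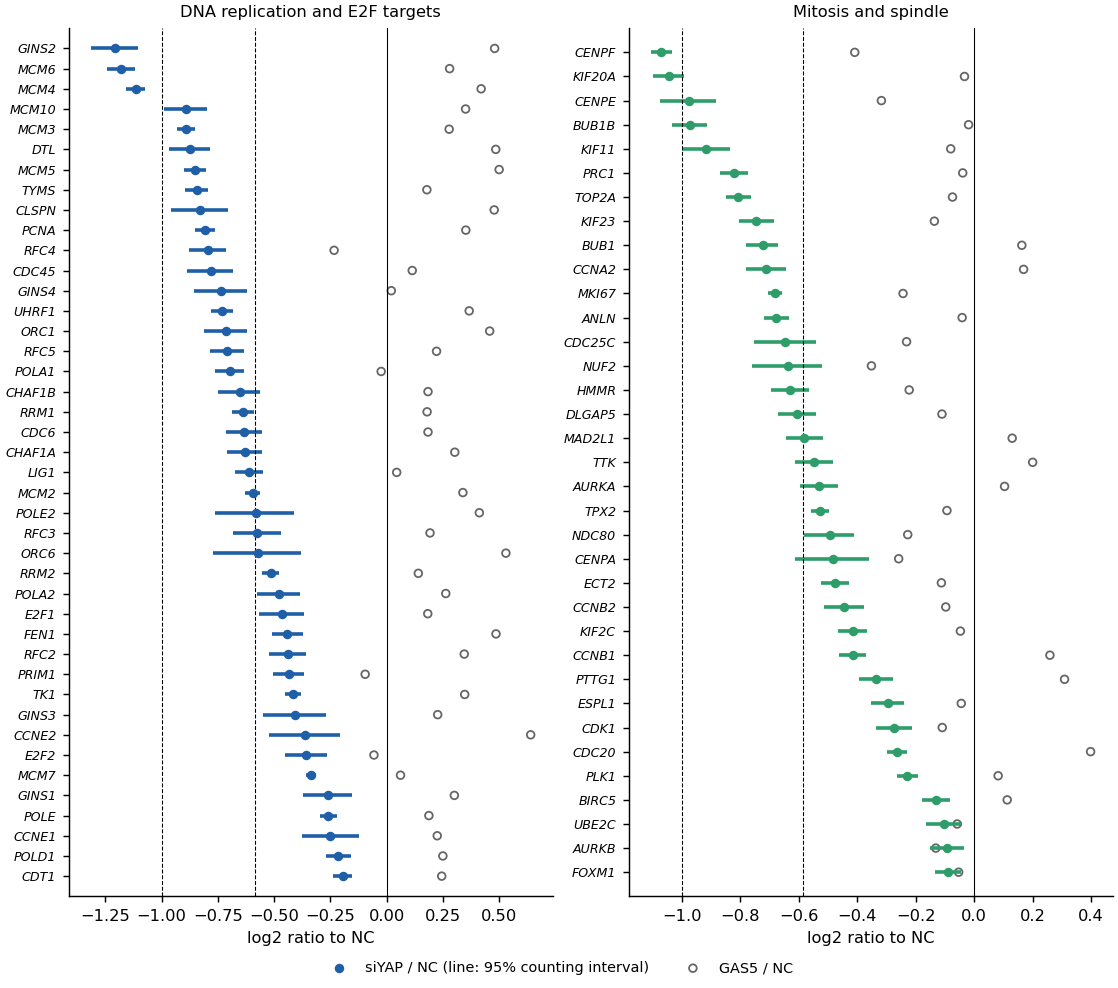
Log2 ratio to NC (x axis) of genes of the DNA replication list (left, all but 1 of 43) and of the mitosis list (right, 35 genes). Filled points with lines are siYAP with its 95% counting interval and open circles are GAS5, both against the same NC mean, with dashed lines at 1.5-fold and 2-fold lower. GINS2 (-1.21) and CENPF (-1.07) stand lowest, and all filled points lie below 0.

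Pathways of the deposited KEGG annotation, whose members were not chosen gene by gene, were counted in the same way. The 33 pathways themselves were chosen by name. DNA replication and Cell cycle share members with the replication list, MCM6 among them, so their counts are not independent of that list. Over the 4552 kept genes with any pathway, 3.82% were at or past 1.5-fold lower and 2.28% were higher. In DNA replication 13 of 35 kept genes were lower and 1 was higher, with a median of -0.44, and in Cell cycle 18 of 116 were lower and 3 were higher, with a median of -0.22. The repair pathways, which share many members with DNA replication and were added after values were seen, had 8 of 22 genes lower in Mismatch repair, 11 of 38 in Homologous recombination, 11 of 51 in Fanconi anemia pathway and 4 of 33 in Base excision repair. In Hippo signaling pathway 4 of 120 kept genes were lower and 3 were higher (median 0.02). In Ribosome and in Proteasome none of 128 and 41 kept genes was past 1.5-fold in either direction.

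Promoter letters known from cell cycle genes were searched in the same windows after the values were seen. The E2F motif was taken as TTTCCCGC, TTTCGCGC, TTTGCCGC or TTTGGCGC on either strand, and was in 23 of 48 windows (47.9%) of the replication list against 4.99% of the windows of all kept genes and 3.31% of all RefSeq promoters. The CHR motif of mitotic genes was taken as TTTGAA or TTCAAA, and was in 24 of 36 windows (66.7%) of the mitosis list against 10.2% and 15.2%. These genes are textbook targets of the factors concerned, so the shares describe how the lists are made up. Over all genes 1.5-fold lower in siYAP, the E2F motif was in 9.22% and the CHR motif in 18.3% of windows, and over the genes 1.5-fold higher in 2.03% and 8.14%. The promoters of 3 replication genes are shown to let the position of the E2F letters be seen, with the motif in capitals. In MCM6 each block of capitals is a pair of overlapping matches on opposite strands, 4 matches in all. The windows are chr16:85688905-85689204, chr2:135876394-135876693 and chr6:52284693-52284992, all on the minus strand.
GINS2: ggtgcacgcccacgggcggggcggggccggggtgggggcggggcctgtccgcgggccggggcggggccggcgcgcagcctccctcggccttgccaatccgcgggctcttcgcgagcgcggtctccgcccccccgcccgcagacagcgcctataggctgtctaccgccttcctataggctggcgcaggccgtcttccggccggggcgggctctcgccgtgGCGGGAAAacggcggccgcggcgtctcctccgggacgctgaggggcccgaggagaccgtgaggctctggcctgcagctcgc
MCM6: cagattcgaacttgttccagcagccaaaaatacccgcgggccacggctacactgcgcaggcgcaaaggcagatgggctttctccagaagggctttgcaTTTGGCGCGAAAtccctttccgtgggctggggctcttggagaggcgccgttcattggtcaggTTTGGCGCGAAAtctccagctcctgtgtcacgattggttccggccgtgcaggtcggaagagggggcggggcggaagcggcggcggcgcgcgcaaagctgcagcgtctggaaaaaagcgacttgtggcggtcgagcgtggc
MCM3: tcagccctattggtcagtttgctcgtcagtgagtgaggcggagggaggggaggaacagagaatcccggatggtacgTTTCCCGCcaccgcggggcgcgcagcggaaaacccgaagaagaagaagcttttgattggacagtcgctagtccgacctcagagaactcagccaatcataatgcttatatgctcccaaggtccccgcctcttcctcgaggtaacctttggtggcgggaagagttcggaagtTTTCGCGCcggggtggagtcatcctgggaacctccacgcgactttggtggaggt
The promoters of 2 mitotic genes are shown in the same way, with the CHR letters in capitals near the start site. The windows are chr1:214602945-214603244 and chr15:40160819-40161118, both on the plus strand.
CENPF: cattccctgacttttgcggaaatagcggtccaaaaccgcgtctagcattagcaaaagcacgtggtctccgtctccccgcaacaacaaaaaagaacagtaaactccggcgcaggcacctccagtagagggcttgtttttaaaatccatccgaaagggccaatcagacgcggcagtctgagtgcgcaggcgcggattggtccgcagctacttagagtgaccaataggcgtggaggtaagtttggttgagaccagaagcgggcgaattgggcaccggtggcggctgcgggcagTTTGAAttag
BUB1B: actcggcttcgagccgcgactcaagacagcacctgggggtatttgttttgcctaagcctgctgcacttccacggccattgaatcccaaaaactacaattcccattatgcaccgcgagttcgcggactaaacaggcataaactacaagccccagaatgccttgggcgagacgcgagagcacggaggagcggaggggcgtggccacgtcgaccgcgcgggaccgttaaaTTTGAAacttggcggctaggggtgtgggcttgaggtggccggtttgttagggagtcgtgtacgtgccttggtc
The CENPF window also holds the TEAD letters once, at its 5′ end.

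A cell cycle inhibitor had the largest increase in CPM of all genes past 1.5-fold. CDKN1A, which encodes the CDK inhibitor p21 (chr6:36676460-36687339, plus strand), was at 352 CPM in NC, 645 in siYAP and 447 in GAS5 (log2 ratio of siYAP over NC 0.87, interval 0.85 to 0.90). Of 16 kept G1 cyclins, CDKs and CDK inhibitors, 3 were at or past 1.5-fold higher (2.22% over all kept genes) and 1 was lower (5.16%). The list was balanced, with 8 genes above NC, 8 below and a median of 0.07. Besides CDKN1A, the higher ones were CDKN2B (0.71) and CDKN1C (0.70), which encode the inhibitors p15 and p57. RBL1, encoding the pocket protein p107, was lower (-0.63). CDKN2B, CDKN1C and RBL1 were named after their values were seen. CDKN1A is a p53 target. Of 24 kept p53 targets 16 were above NC, with a median of 0.16, and CDKN1A was the only one at or past 1.5-fold (2.22% higher over all kept genes). Histone genes did not share the difference of the replication list in their median, which was -0.04. None of 48 kept was past 1.5-fold, against 2.22% higher and 5.16% lower over all kept genes. After centring on GC content and length, chosen after seeing the data, the histone median was -0.19.

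The genes that were higher in siYAP came from several functions, junction and membrane genes among them. The tight junction protein CLDN4 went from 199 to 330 CPM (0.73), and MALL, a MAL-family membrane protein, from 398 to 631 CPM (0.67). Of 31 kept junction genes 4 were at or past 1.5-fold higher (2.22% over all kept genes) and 0 were lower (5.16%), though the median was -0.04. CLDN3 (0.85) and PARD6B (0.73), a cell polarity protein, were also past the limit and were named after their values were seen. Of 11 kept keratin and intestinal epithelial genes, 2 were past 1.5-fold higher (2.22% over all kept genes), with a median of 0.30. They were KRT7 (0.90, from 52.7 to 98.5 CPM) and KRT80 (0.69), named after their values were seen. The serine protease PRSS22 (0.98) and the adhesion protein MPZL3 (0.97) were among the 15 largest ratios at 200 counts or more.

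The fixed lists of cytoskeletal genes did not lie to one side. Of 27 kept actin cytoskeleton and SRF target genes 1 was at or past 1.5-fold higher (2.22% over all kept genes) and 1 lower (5.16%), with a median of -0.02. In the KEGG pathway Regulation of actin cytoskeleton 4 of 150 were higher and 6 lower, against 2.28% and 3.82% over all kept genes with a pathway. Single genes of these functions were past the limit. PAK6, a p21-activated kinase, was at 8.75 CPM in NC and 27.1 in siYAP (log2 ratio 1.62, interval 1.48 to 1.78). NGEF, an exchange factor for small GTPases, went from 9.10 to 20.02 CPM (1.13), and smooth muscle actin, ACTA2, from 7.75 to 15.1 CPM (0.96). The actin-severing protein GSN (0.69) and the GTPase RHOC (0.65) were past 1.5-fold at 182 and 186 CPM in NC. In the list of integrins, laminins and matrix, COL7A1, the collagen of anchoring fibrils, was at 2.08 CPM in NC and 5.75 in siYAP (1.43), and SPARC, a matricellular protein, at 2.05 and 4.33 (1.05). These were the only 2 of 24 kept members at or past 1.5-fold higher (2.22% over all kept genes), and ITGAV, an integrin subunit named after its value was seen, was the only one lower (-0.59). Above NC were 17 of 24, and the median was 0.20. The metalloprotease inhibitor TIMP2 went from 185 to 281 CPM (0.61).

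Signalling genes made up a further share. Of 19 kept immediate-early genes, 4 were at or past 1.5-fold higher (2.22% over all kept genes), 0 were lower (5.16%), and the median was 0.37. In the GAS5 group, against the same NC values, the median of the list was 0.38. After centring on GC content and length, chosen after seeing the data, the siYAP median was 0.25. EGR3 was at 1.35 CPM in NC and 3.56 in siYAP (1.36, interval 1.02 to 1.80), and NR4A1 (0.83), EGR1 (0.68) and JUN (0.65), named after their values were seen, were past 1.5-fold. The GAS5 levels of EGR1 and JUN were higher still, at 111 and 88.5 CPM against 59.1 and 22.7 in siYAP. DUSP5, the nuclear ERK phosphatase, went from 209 to 344 CPM (0.72), and MKNK2, a kinase of the cap-binding protein eIF4E, from 185 to 319 CPM (0.79). The chemokine gene CXCL8 was at 2.12 CPM in NC, 4.82 in siYAP and 14.4 in GAS5 (1.16). Of 16 kept NF-kappa B and inflammatory genes it was the only one past 1.5-fold higher (2.22% over all kept genes). REL, an NF-kappa B subunit named after its value was seen, was the only one lower (-0.82, against 5.16% lower over all kept genes). VGF, a neurosecretory peptide precursor, went from 20.1 to 54.2 CPM (1.43, interval 1.33 to 1.54). ZFP36L1, which promotes decay of AU-rich mRNAs, went from 166 to 263 CPM (0.67). Interferon-stimulated genes gave a contrast between the treatments in their medians, 0.03 in siYAP and 1.46 in the GAS5 group. None of 30 kept members was past 1.5-fold in siYAP, against 2.22% higher and 5.16% lower over all kept genes.

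**Figure D4:**
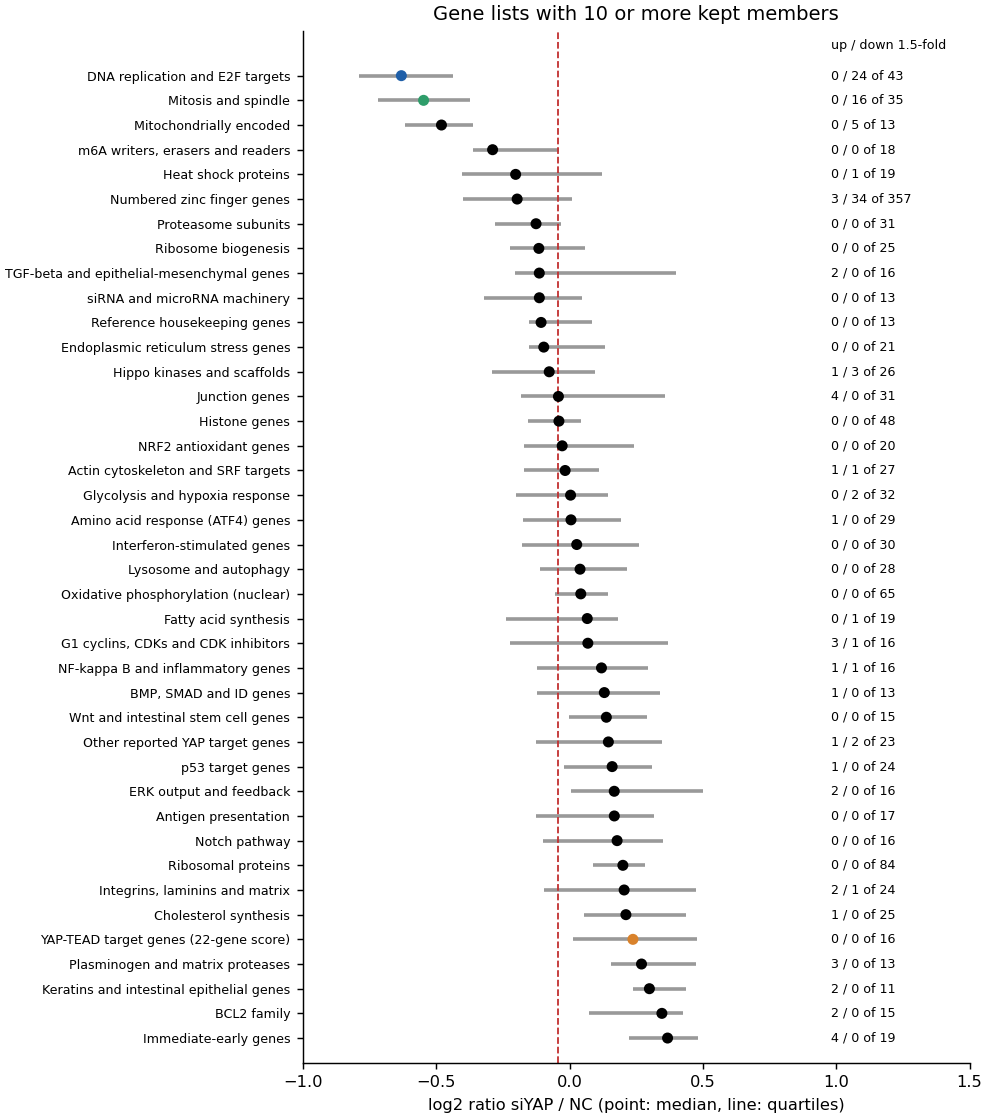
Median (point) and quartiles (line) of the log2 ratio of siYAP over NC for each gene list with 10 or more kept members, with the number of members 1.5-fold higher and lower on the right. The dashed line is the median of all kept genes (-0.04). DNA replication (-0.63) and mitosis (-0.55) have the lowest medians of these lists and immediate-early genes (0.37) the highest.

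The largest decreases in CPM among genes past 1.5-fold were those of MT-ND4, MT-ATP6, HSPA8 and LDHA. The mitochondrially encoded genes MT-ND4, a complex I subunit, and MT-ATP6, an ATP synthase subunit, went from 4186 to 2738 CPM and from 2346 to 1531 CPM, with log2 ratios of -0.61 and -0.62. All 13 mitochondrially encoded genes were below NC (12 of 13 with TMM or DESeq2 scaling), with a median of -0.48. Of these, 5 were past 1.5-fold lower (5.16% over all kept genes). None of 65 kept nuclear genes of oxidative phosphorylation was past 1.5-fold (median 0.04), against 2.22% higher and 5.16% lower over all kept genes. LDHA, the lactate dehydrogenase of glycolysis, went from 957 CPM in NC to 566 in siYAP and was at 1268 in GAS5 (-0.76). Of 32 kept glycolysis and hypoxia genes, only 2 were past 1.5-fold, both lower (5.16% over all kept genes), and the median was 0.0038. They were LDHA and PDK1 (-0.67), a kinase of pyruvate dehydrogenase named after its value was seen. The chaperone HSPA8 was at 1346 CPM in NC, 877 in siYAP and 2206 in GAS5 (-0.62). It was the only member of 19 kept heat shock genes past the limit (5.16% lower over all kept genes). HNRNPA3, an RNA-binding protein, went from 385 to 253 CPM (-0.61). Under TMM scaling MT-ND4 (-0.58), MT-ATP6 (-0.58), HSPA8 (-0.58) and HNRNPA3 (-0.57) no longer reached 1.5-fold, and after centring on GC content and length they were at -0.45, -0.51, -0.45 and -0.47. Ribosomal protein genes lay on the other side, with 76 of 84 kept genes above NC and a median of 0.20. None was past 1.5-fold, against the same 2.22% higher and 5.16% lower. NOP53, a ribosome biogenesis factor, went from 146 to 259 CPM (0.82), but joined with its older symbol its log2 ratio was 0.52, within 1.5-fold.

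Numbered zinc finger genes, a large family of mostly KRAB-type repressors, had 34 of 357 kept genes past 1.5-fold lower (9.52%, against 5.16% over all kept genes), 3 higher and a median of -0.20, which was -0.074 after centring on GC content and length. ZNF587B was the only one past 2-fold, at 12.02 CPM in NC and 5.03 in siYAP (-1.24).

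The ratio of siYAP over NC varied with the base composition of the transcripts. For 11790 kept genes (99.0%) the GC content of the transcript with most counts was read from GENCODE 29. Across these genes, which share the same libraries and are not independent, the Spearman correlation between the log2 ratio and GC content was 0.55, against 0.19 for GAS5 over NC and -0.19 between the siYAP ratio and transcript length. Median GC content was 42.4% in the genes 1.5-fold lower, 61.0% in those 1.5-fold higher and 49.5% in all. In 5 bins of equal size by GC content, 11.03% of genes were lower and 0.42% higher in bin 1, and 0.59% lower and 6.53% higher in bin 5. The replication list, with a median GC content of 48.7%, lay below the other genes in each bin, at medians of -0.44, -0.75, -0.78, -0.44 and -0.47 in bins 1 to 5 against -0.24, -0.19, -0.06, 0.09 and 0.20 for all genes. The mitosis list lay below in bins 1 to 4, the bins in which it has members, at -0.63, -0.65, -0.45 and -0.23. The zinc finger genes lay close to their bins, at -0.35 against -0.24 in bin 1 and 0.20 against 0.20 in bin 5. After centring on GC content and length, an alternative chosen after seeing the data, 17 genes were 2-fold higher and 34 were 2-fold lower, and 182 and 324 were 1.5-fold higher and lower. The replication list then had 21 of 43 genes past 1.5-fold and a median of -0.58, the mitosis list 6 of 35 and -0.38, the zinc finger genes a median of -0.074, and YAP1 a log2 ratio of -1.005. The part of GC content in the differences was not tested.

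**Figure D5:**
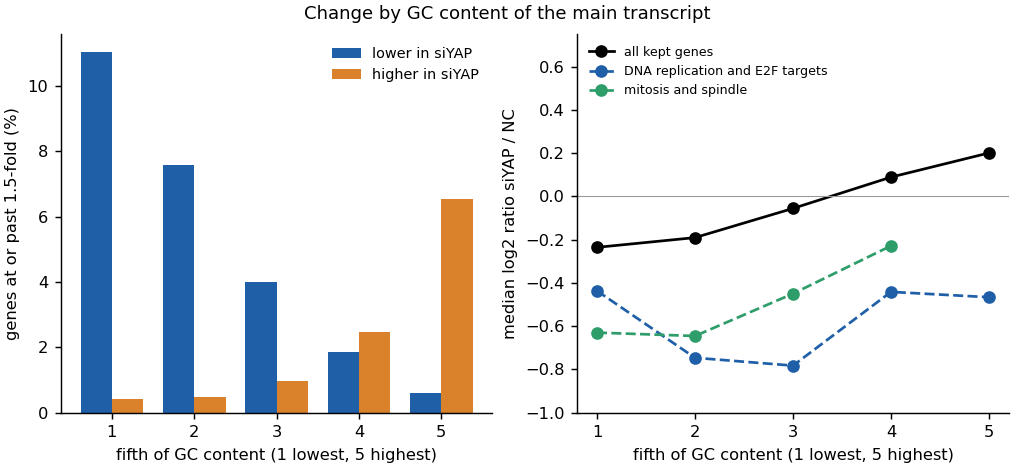
Left, share of kept genes at or past 1.5-fold lower or higher in siYAP (y axis, percent) in 5 bins of GC content of the main transcript (x axis). Right, median log2 ratio of siYAP over NC in the same bins for all kept genes and for the replication and mitosis lists. The share of lower genes goes from 11.03% in bin 1 to 0.59% in bin 5, and both lists lie below the line of all genes in each bin in which they have members.

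Several of the largest ratios belonged to symbols that split 1 gene. The tables list 180 genes under more than 1 symbol, as matched by RefSeq synonyms, and 15 of the 103 genes past 2-fold carry such a symbol. In each pair that holds one, the transcripts under the older name were assembled from the reads and have no Ensembl identifier. SGK223 went from 589 counts in NC to 28.7 in siYAP (log2 ratio -4.22), while PRAG1, the current name of the same gene, was at 910 and 2017 counts (1.20), and their sum had a log2 ratio of 0.50. LARGE2, the largest ratio among higher genes with at least 200 counts (1.92), had 191 counts in NC and 701 in siYAP, its older name GYLTL1B had 1050 and 922, and their sum gave 0.44. CASC5 had 111 counts in NC and none in siYAP, and is the older name of KNL1, a kinetochore scaffold with 3575 and 1672 counts, whose joined ratio was -1.09. Likewise C10ORF54 (2.09) joined with VSIR gave 0.60, FAM134C (2.06) joined with RETREG3 gave 0.23 and AIM1L (1.17) joined with CRYBG2 gave 0.63. With all older symbols joined, 26 genes were 2-fold higher and 64 were 2-fold lower.

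Further genes had large ratios. MTRNR2L12, a nuclear gene resembling mitochondrial 16S rRNA, had a log2 ratio of -2.10 and the retroviral entries POL and ERVK-8 had -1.26 and -1.22, and reads of such copies cannot be assigned with certainty. OR51I1, an olfactory receptor gene, was at 361 counts in NC (13.3 CPM) and 3.05 CPM in siYAP (-2.10), SHISA9 at 40.2 and 16.6 CPM (-1.27), CCDC14, a centrosomal protein, at 69.7 and 30.2 CPM (-1.21), PARP15 (-1.28) and the junctophilin JPH1 at 20.1 and 8.78 CPM (-1.19). On the higher side, GALNT9, a glycosyltransferase, had 1.79 CPM in NC and 5.66 in siYAP (1.62), the lipase LIPG 10.3 and 21.0 CPM (1.02), SH3TC1 6.82 and 15.3 CPM (1.16), TRAPPC6A, of a vesicle trafficking complex, 5.32 and 10.9 CPM (1.02) and LEMD1 5.69 and 11.5 CPM (1.01).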

How the data were processed

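The authors sequenced strand-specific libraries of HCT116 RNA, 2 for each of NC, siYAP and GAS5. TopHat2 2.1.1 is named in the submitters' processing notes, and the quantifier, genome build and annotation are not given in the sources used here. The deposited expected counts are estimated counts per transcript, which the authors averaged within each group and did not scale. The deposited FPKM values are scaled for transcript length and library size by the authors, averaged alike, with 0 written as 0.001. The authors' columns of log2 fold change, p-value, FDR and a significance mark were not used. Of 92866 transcripts, 12002 were assembled from reads and 339 without a symbol were left out (0.22% of NC and 0.21% of siYAP counts).

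Counts were summed by upper-case symbol, kept at a mean of at least 50, scaled by totals and compared as log2 ratios with a prior count of 2 (Python 3.11.15, pandas 2.3.3). The edgeR test of the design needs separate libraries and was not run. Precision is given by depth, 25471771 to 27145310 counts per group, as 95% Wilson intervals on the counts of both libraries, which cover counting error only since reads are not independent molecules. The steps were tested on simulated data. Members and gene lists were chosen with earlier results of these data known. Genes named were, per direction, the 15 largest ratios at 200 counts or more, the 5 largest of all, the 10 largest CPM differences past 1.5-fold, list members past 2-fold, and YAP1, WWTR1, TEAD1 to TEAD4, CTGF, CYR61, ANKRD1, AXL, AMOTL2 and YTHDF3; others are marked as named after their values were seen, and joined symbols, genes given as the smallest differences of a list and limit cases also fall outside the rule. Alternatives were TMM (edgeR 4.0.16) and DESeq2 1.42.0 scaling, filters of 10, 200 and none, prior counts of 0.5 and 10, Ensembl transcripts only and summed FPKM with a pseudocount of 0.1. Those added after seeing the data were joined older symbols (RefSeq synonyms), centring on 20 bins each of GC content and length, totals without mitochondrially encoded genes, and only the first promoter window of a gene. Values of some genes within the rule are not reported here. Promoters are from RefSeq and coordinates from GENCODE 29.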

Additional observations from a re-analysis of the deposited data

How the results depend on the processing

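No paired analysis was possible because each group has a single mean value, and for the same reason leaving out replicates and the edgeR and DESeq2 tests were not run. A count within 1.5 times its value, a list median within 0.1 and a gene inside its counting interval are taken as the same. Under TMM, DESeq2 size factors, both other prior counts, summed FPKM, joined symbols and totals without mitochondrially encoded genes, the counts of genes past 2-fold and 1.5-fold, the YAP1 ratio and the 10 list medians recomputed were the same by that measure. The filter on low counts moved the 2-fold counts most. With a mean of at least 10, 109 genes were higher and 158 lower, with at least 200, 12 and 34, and with no filter 355 and 360. At 1.5-fold, higher genes numbered 489, 163 and 1095 under these filters, and lower genes 1296 with no filter. With Ensembl transcripts only, 87 genes were 2-fold higher, 118 lower and 409 were 1.5-fold higher. Reads of assembled transcripts are then left out, and their part in these larger counts was not tested.

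Centring on GC content and length gave 17 genes 2-fold higher, 34 lower and 324 past 1.5-fold lower, YAP1 at -1.005, the mitosis list at a median of -0.38 with 6 genes past 1.5-fold lower, zinc finger genes at -0.074, immediate-early genes at 0.25 and histone genes at -0.19. The TEAD motif stood in 10.2% of first windows of all kept genes. Signs of the 70 other named genes that were kept held for 69 under TMM, 70 under DESeq2 scaling, 69 under FPKM and 60 of 62 after centring. After centring CLDN4 (0.57), GSN (0.57), RHOC (0.41), NOP53 (0.58) and MKI67 (-0.58) were within 1.5-fold. The median half-width of the counting interval was 0.27 on the log2 scale for genes of 50 to 200 counts, and the spread between cultures is unknown.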

Other observations

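Among gene groups outside the comparisons above, the BCL2 family of apoptosis regulators had 2 of 15 kept genes at or past 1.5-fold higher in siYAP (2.22% over all kept genes) and 0 lower, with a median log2 ratio of 0.35 against -0.04 over all kept genes. Above NC were 13 of the 15. In the KEGG pathway Apoptosis 4 of 120 kept genes were higher and 3 were lower (median 0.04), against 2.28% and 3.82% over all kept genes with a pathway. The 2 higher BCL2 family genes, named after their values were seen, encode pro-apoptotic proteins. BIK was at 7.52 CPM in NC and 12.4 in siYAP (log2 ratio 0.72), and BAK1 was at 30.3 and 46.0 CPM (0.60). Of 13 kept genes of plasminogen activation and matrix proteolysis, 3 were higher, against the same 2.22%, and 0 were lower (median 0.27). They include TIMP2 and PLAT, the tissue plasminogen activator, which had a log2 ratio of 0.72 and was named after its value was seen. Of 6 kept metallothionein genes, MT1F (0.66) and MT1X (0.59), named after their values were seen, were past 1.5-fold higher, against the same 2.22%.

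Other groups had few members or none past 1.5-fold. Among 25 kept genes of cholesterol synthesis the only one was HMGCS1, the HMG-CoA synthase, from 63.1 to 97.5 CPM (0.63, named after its value was seen). None of 18 kept m6A writers, erasers and readers was past the limit, with a median of -0.29, and none of 13 kept genes of the siRNA and microRNA machinery, with a median of -0.11. None of 15 kept Wnt and intestinal stem cell genes, 16 Notch pathway genes, 17 antigen presentation genes, 20 NRF2 antioxidant genes or 31 proteasome subunits was past it either. Over all kept genes 2.22% were higher and 5.16% lower. For lists of these sizes, counts of 0 are near these shares. The share of lower genes ranged from 2.19% of 319 kept genes on chromosome 20 to 7.95% of 415 on chromosome 4, against 5.16% over all kept genes. These are the extremes among the chromosomes counted, and the part of GC content in this range was not tested.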
